A study of Homo sapiens with 3 samples.

Results

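The comparison described here is that of wild-type ZEB1 with empty vector, across gene families other than NF-kB and cytokines. ZEB1 is a transcription factor with zinc fingers that binds E-box sequences, represses epithelial genes such as the E-cadherin gene CDH1 and is known as a driver of epithelial-mesenchymal transition, in which epithelial cells lose their junctions and gain motility. It recruits corepressors at some promoters and coactivators at others, and it can act together with AP-1 factors. Cultures of HCT116, as labelled, a line from a human colorectal carcinoma, were grown under the same conditions and carried either an empty vector control, overexpressed wild-type ZEB1, or overexpressed ZEB1 K80R, a mutant with a lysine replaced by an arginine. All 3 were labelled as control for treatment, and the sources used here give neither the vector, its promoter nor whether a line was 1 clone or a pool. Gene expression was measured by RNA sequencing. Each group had 1 library, which left no replicate to measure the variation between cultures, and no p-value is given. Levels are FPKM, fragments scaled to gene length and to the library size used in the deposited values. The ZEB1 K80R value is printed beside the others where it helps to read a gene.

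Members were the protein-coding genes outside the mitochondrial and Y chromosomes whose mean FPKM over the wild-type ZEB1 and empty vector libraries was at least 1. They numbered 10322 of the 19893 protein-coding genes outside those chromosomes, in a table of 58735 genes. Of the 10322, 9910 reached 1 FPKM in both libraries, 236 in the wild-type ZEB1 library alone and 176 in the empty vector library alone. A gene of the latter 2 kinds could pass only through the library in which it was high. Just inside the threshold lay MESP1, at 1.54 FPKM in the empty vector library and 0.459 in the wild-type ZEB1 library, and just outside lay ZNF747, at 1.02 and 0.976.

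The libraries held between 13479517 and 14764535 reads recovered from the FPKM values. The wild-type ZEB1 library held 14322537 and the empty vector library 14764535, while the library sizes implied by the FPKM scaling were 1.38e+07 and 1.59e+07. Scaling on the recovered reads would thus give every gene a lower ratio of wild type to empty vector. The empty vector library stood apart from the other 2 in its low counts, with 350 genes at exactly 1 read against 2705 and 2902, and mitochondrial genes took 1.29% of its reads against 7.77% with wild-type ZEB1 and 9.75% with ZEB1 K80R. The part of these differences in the results was not tested. ZEB1 itself was at 5.66 FPKM with empty vector, 9.83 with wild-type ZEB1 and 10.3 with ZEB1 K80R, a ratio of wild type to empty vector of 1.74 (1.58 to 1.90). Brackets after a ratio give the exact 95% counting interval, which covers counting error only. The libraries did not carry the markers of colon epithelium: 8 of 14, CDH1, EPCAM, CDX1, CDX2, VIL1, HNF4A, KRT20 and CEACAM5, had 0 reads in every library, which allows up to 3 reads each, and KRT8 and KRT18 alone reached 1 FPKM. The summed level of the 14 was 93.0 FPKM with empty vector and 101.5 with wild-type ZEB1. Of 27 markers of fibroblasts, leukocytes, endothelium, neurons and hepatocytes, 5 reached 1 FPKM in some library, the highest being NEFL at 71.9 and 45.0 FPKM.

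Most genes had similar levels in the 2 libraries. The difference of a gene is taken as log2(FPKM + 1) in the wild-type ZEB1 library minus that in the empty vector library, a scale that understates the differences of low genes. Its median over the 10322 genes was 0.016, its 5th percentile −0.69 and its 95th 0.88, and 8305 genes (80.5%) were within 1.5-fold. At least 2-fold higher were 346 genes (3.35%), and at least 2-fold lower were 125 (1.21%). A difference of 4-fold or more was found for 24 genes in the upward direction and 1 in the downward direction. Of the 346 higher genes, 28 belonged to the NF-kB and cytokine lists, and none of the 125 lower genes did. These counts depend on the scaling. The FPKM of all genes, mitochondrial ones included, summed to 223875 with empty vector and 307544 with wild-type ZEB1. Over protein-coding genes outside the mitochondrial and Y chromosomes the sums were 194076 and 205419. When the FPKM of each library were brought to a common sum over all genes, the median gene moved by −0.42. Then 181 genes were 2-fold higher and 1161 lower, against 501 and 243 relative to that median gene. Directions below are therefore set against the remaining genes.

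**Figure D1:**
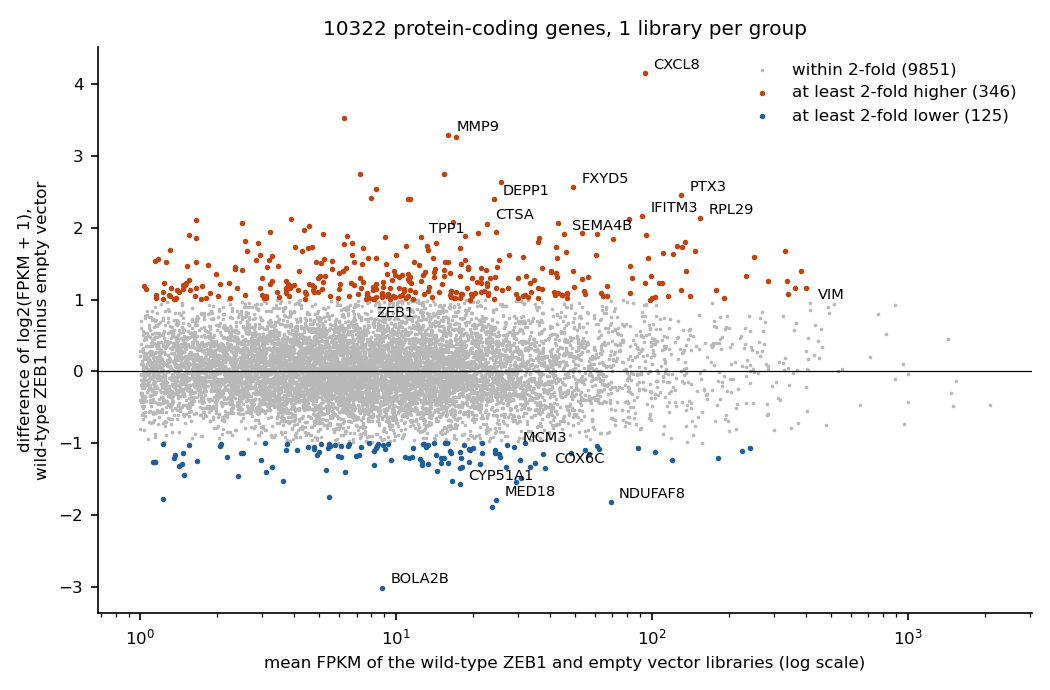
Difference of log2(FPKM + 1) between the wild-type ZEB1 and empty vector libraries (vertical axis) against the mean FPKM of both libraries (horizontal axis, log scale), 1 point per protein-coding gene. The 346 genes at least 2-fold higher extend further from 0 than the 125 at least 2-fold lower.

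Among the 20 genes with the largest upward difference, 9 were NF-kB or cytokine genes. The other 11 were led by the matrix protease gene MMP9 (ENSG00000100985; GRCh38, chromosome 20, 46008908 to 46016561), at 2.13 FPKM with empty vector, 29.7 with wild-type ZEB1 and 4.98 with ZEB1 K80R. Its ratio of wild type to empty vector was 13.96 (11.1 to 17.8). FXYD5, which encodes dysadherin, a membrane glycoprotein that regulates the sodium pump (ENSG00000089327; chromosome 19, 35154730 to 35169883), was at 13.4, 84.7 and 87.7 FPKM in the same order, high in both ZEB1 libraries. The soluble pattern receptor gene PTX3 was at 39.4, 221 and 43.3 FPKM and DEPP1, a FOXO-responsive gene linked to autophagy, at 6.99, 41.3 and 9.45, high in the wild-type ZEB1 library alone. The interferon-induced membrane protein gene IFITM3 stood at 32.7, 150.03 and 107.2 FPKM. Its neighbour IFITM1, which is similar in sequence and overlaps IFITM2, had 14, 103 and 85 reads. The cell cycle gene CKS2, a small partner of cyclin-dependent kinases, was at 29.8, 133 and 102 FPKM. The remaining 4 were the histone genes HIST1H2BD and HIST1H4I, the ribosomal protein gene RPL29 and the ATP synthase gene ATP5MF, which overlaps CPSF4 and PTCD1.

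The 20 genes with the largest downward difference held no NF-kB or cytokine gene. BOLA2B was at 16.5 FPKM with empty vector and 1.17 with wild-type ZEB1, but it has a near-identical copy between which reads may be split. NDUFAF8, an assembly factor of respiratory complex I (ENSG00000224877; chromosome 17, 81239239 to 81241281), was at 108.1, 29.8 and 19.97 FPKM with empty vector, with wild-type ZEB1 and with K80R, a ratio of wild type to empty vector of 0.275 (0.251 to 0.302). MED18, a subunit of the Mediator complex that links transcription factors to RNA polymerase II, was at 38.6, 10.4 and 7.66 FPKM. PDF, a mitochondrial peptide deformylase that overlaps COG8, was at 37.9, 9.51 and 7.07 FPKM. Both were lowest in the ZEB1 K80R library, as NDUFAF8 was. The pyridoxal phosphatase gene PDXP was at 8.97, 1.97 and 1.91 FPKM, and IFRD2 was at 45.8, 15.8 and 15.9. Other mitochondrial genes of this group were PARL, a rhomboid protease of the inner membrane, at 21.3, 7.51 and 5.40 FPKM, and COX6C, a subunit of complex IV, at 55.3, 21.2 and 14.1. GMNN encodes geminin, which limits replication licensing, and was at 26.0, 9.57 and 11.9 FPKM. The others were TMEM160, TIMM23B, RAB23, POMK, FLG, GJD3, GNG8, PAGE1, CYP51A1, PMVK and HIST1H4B, the last with 17 reads against 0. GJD3 and GNG8 rested on 10 and 1 reads in the wild-type ZEB1 library.

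Gene families were described through 98 lists with at least 5 measured members outside NF-kB and cytokines. Within a list a member counted as higher or lower at 1.5-fold, a size that 11.7% of all genes compared reached upwards and 7.80% downwards. The median difference was above 0 for 55 lists and below 0 for 43. A reference list of 26 housekeeping genes had 7 higher (26.9%) and 2 lower (7.69%), and a median difference of 0.17. Several lists described below as leaning upwards had a share of higher members near or below that 26.9%. At a common sum, with no centring, 51 of the 98 medians had the other sign, and those of glycolysis and lysosomal genes were −0.07 and 0.01. Members that passed the level filter through 1 library alone could do so only by differing. Among members at or above 1 FPKM in both libraries, 4 of 21 semaphorins and plexins, 7 of 26 GPI-anchor genes and 8 of 22 AP-1, ATF and CREB factors were higher. Over the lists, lysosomal, vesicle coat, matrix, glycolysis and lipid synthesis genes lay on the upper side, and DNA replication, DNA repair, ribosome biogenesis, chaperone and complex IV assembly genes on the lower side.

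**Figure D2:**
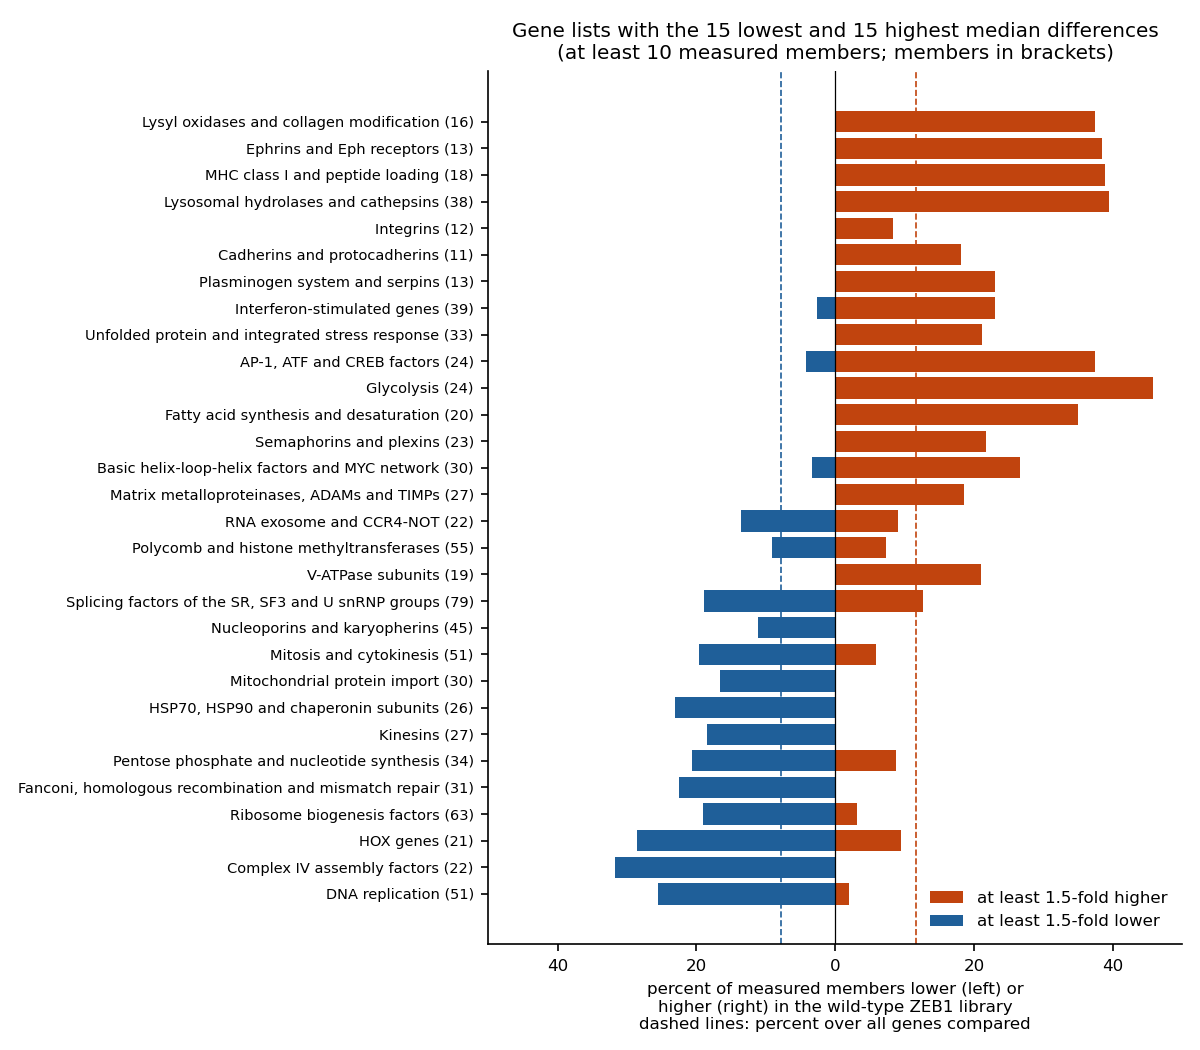
Percent of the measured members of each list that were at least 1.5-fold lower (left) or higher (right) in the wild-type ZEB1 library, for the lists of at least 10 measured members with the 15 lowest and 15 highest medians. Dashed lines mark the 7.80% and 11.7% over all genes, and glycolysis has the longest bar to the right and complex IV assembly factors the longest to the left.

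Lysosomal genes lay on the upper side almost throughout. Lysosomes degrade proteins, sugars and lipids with acid hydrolases, and many of their genes carry the sequence TCACGTGA, the core of the element bound by TFEB. Of 38 measured genes of hydrolases, cathepsins and lysosomal membrane proteins, 15 (39.5%) were at least 1.5-fold higher, against 11.7% of all genes, and none was lower, against 7.80%. The difference was above 0 for 37 of the 38, and the median was 0.44, against 0.016 over all genes. CTSA, the protective protein for lysosomal sialidase and galactosidase (ENSG00000064601; chromosome 20, 45890144 to 45898820), was at 8.14 FPKM with empty vector, 37.1 with wild-type ZEB1 and 33.5 with ZEB1 K80R, a ratio of wild type to empty vector of 4.56 (4.21 to 4.94). The tripeptidyl peptidase gene TPP1 (chromosome 11, 6612763 to 6619485) was at 4.81, 20.2 and 21.9 FPKM, a ratio of 4.21 (3.81 to 4.65). The galactosidase gene GLB1 stood at 8.28, 22.4 and 20.3 FPKM and the membrane glycoprotein gene LAMP1 at 43.3, 90.7 and 96.6. All 4 were high in both ZEB1 libraries. The proton pump that acidifies the lysosome did not follow as a group: 4 of 19 V-ATPase subunits were higher and none lower, and the median difference was −0.14, although ATP6V1F was at 15.4 and 56.1 FPKM.

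Promoter windows from RefSeq (GRCh38.p14), 250 bases before to 50 after a gene's start, were found for 8322 of the 10322 genes (80.6%). The letters TCACGTGA, which read the same on both strands, stood in 2.19% of these windows and in 4 of 24 windows of lysosomal genes (16.7%). The 4 had a median difference of 0.87, against 0.44 for the lysosomal genes without the letters. V-ATPase subunits had the letters in 2 of 12 windows (16.7%), and these 2 had a median of −0.06, against 0.48 for the subunits with a window but without them. Only 12 of the 19 subunits had a window, and the median over all 19 was −0.14, so those with a window were not like the list. Over all genes with a window, the 182 with the letters had a median of −0.02 and those without had 0.02, so the letters alone did not go with a higher level. The 100 bases upstream that hold the letters are shown for 3 of the 4, with TCACGTGA in capitals, to show where the letters lie. They are CTSA at chr20:45891235-45891334 and LAMP1 at chr13:113297139-113297238 with 1 match each, and GAA, the acid glucosidase gene, at chr17:80101481-80101580 with 2, all on the plus strand. The CTSA window lies upstream of a RefSeq start but inside the span of the gene in the deposited table, 1091 to 1190 bases past its first base.
CTSA: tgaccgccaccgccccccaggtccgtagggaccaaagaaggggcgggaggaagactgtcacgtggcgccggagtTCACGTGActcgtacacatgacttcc
LAMP1: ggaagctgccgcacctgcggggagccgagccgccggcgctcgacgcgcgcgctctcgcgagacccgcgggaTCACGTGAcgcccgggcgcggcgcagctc
GAA: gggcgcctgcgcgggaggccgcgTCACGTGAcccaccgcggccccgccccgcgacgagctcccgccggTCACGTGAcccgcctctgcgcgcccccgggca

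Genes of the early secretory pathway leaned upwards, while those of glycosylation did not. COPII vesicles carry proteins out of the endoplasmic reticulum, COPI vesicles return them, and TRAPP complexes tether both. Of 33 measured genes, 10 (30.3%) were at least 1.5-fold higher and none lower, and the median difference was 0.25. TRAPPC1 was at 23.0, 61.2 and 46.3 FPKM with empty vector, with wild-type ZEB1 and with K80R, and the COPII cargo adaptors SEC24D, SEC24C and SEC24B at 4.62, 11.7 and 8.75, at 8.99, 20.4 and 22.1, and at 7.48, 14.5 and 16.9. Each of these 4 was lowest in the empty vector library. Of 27 genes of phosphatidylinositol and GPI-anchor synthesis, which attach a lipid anchor to surface proteins, 8 were higher and none lower, and the median difference was 0.23. Glycosyltransferases of N- and O-glycosylation had 4 of 52 higher (7.69%) and 3 lower, and the median difference was 0.04. PIGU, a subunit of the transamidase that attaches the anchor, stood at 4.65, 10.8 and 13.5 FPKM. The unfolded protein and integrated stress response, which adjusts folding capacity, had 7 of 33 genes higher and none lower, and the median difference was 0.35. Its transcription factor DDIT3 was at 2.12, 5.49 and 3.96 FPKM. DDIT3 overlaps MARS, at 53.9 FPKM with empty vector and 59.9 with wild-type ZEB1, and MBD6, at 2.91 and 11.9, and reads of these genes could not be told apart by strand.

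Collagen-modifying enzymes had the highest median of the lists with at least 10 measured members. They hydroxylate collagen in the endoplasmic reticulum or crosslink it outside the cell. Of 16 measured genes, 6 (37.5%) were at least 1.5-fold higher and none lower, and the median difference was 0.51. PLOD1, a lysyl hydroxylase, was at 20.7, 41.5 and 38.4 FPKM in the order empty vector, wild type, K80R. The crosslinking lysyl oxidases LOX and LOXL1 stood at 13.7, 27.7 and 19.96 and at 4.48, 9.17 and 8.28 FPKM. The prolyl hydroxylase gene P4HA2 was at 7.82, 14.9 and 8.93 FPKM, with its ZEB1 K80R level close to empty vector. The collagens that these enzymes act on had 2 of 14 genes higher and none lower, and a median of 0.05, with COL6A2 at 17.9, 46.6 and 33.9 FPKM.

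**Figure D3:**
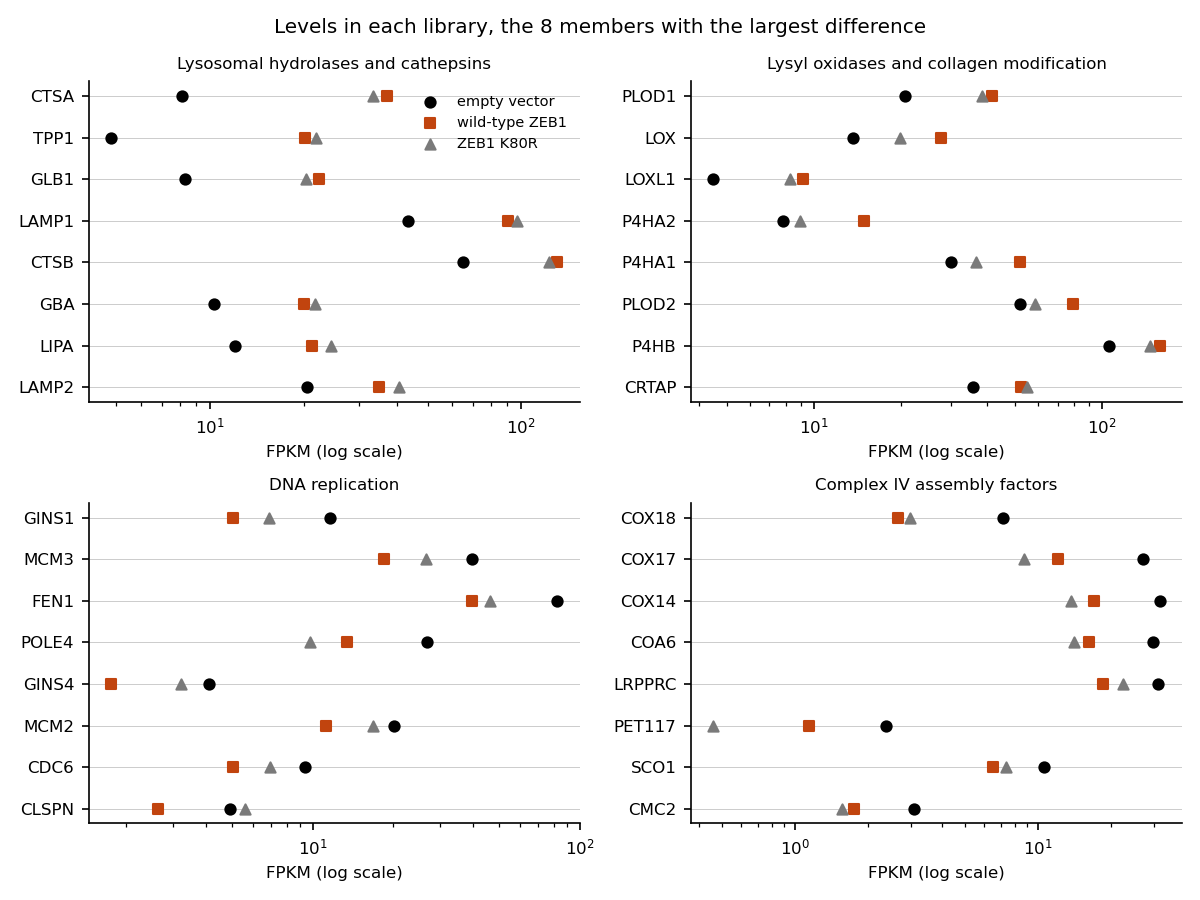
FPKM (horizontal axis, log scale) with empty vector (circles), with wild-type ZEB1 (squares) and with ZEB1 K80R (triangles) for the 8 members with the largest difference in 4 lists. Lysosomal and collagen-modifying genes have the circle on the left, while the replication and complex IV assembly genes shown have it to the right of the square.

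Lists of the cell surface and matrix mostly had a median difference above 0. Their shares past 1.5-fold stand against 11.7% of all genes higher and 7.80% lower, and some were near these. Claudins and tight junction proteins had 0 of 7 higher and 1 lower, and a median of −0.004. Of 34 laminins and other matrix glycoproteins, 8 were higher (23.5%) and 2 lower (5.88%). Fibronectin, FN1, was at 57.4, 112 and 117 FPKM with empty vector, with wild-type ZEB1 and with K80R. Of 12 integrins, 11 had a difference above 0 but only 1 (8.33%) passed 1.5-fold. It was ITGA5, a fibronectin receptor subunit, at 55.6, 132 and 117 FPKM. Matrix metalloproteinases, ADAMs and their inhibitors had 5 of 27 higher (18.5%) and none lower. MMP14, the membrane-bound protease with the highest level of these 4, was at 559, 975 and 712 FPKM beside MMP9, MMP1 and TIMP1. In the plasminogen system and serpins 3 of 13 were higher (23.1%) and none lower, with the activator PLAT at 40.3, 93.2 and 89.8 FPKM. Of 11 cadherins and protocadherins, 2 were higher (18.2%) and none lower. The 2 were CDH13, at 4.95, 14.7 and 12.5 FPKM, and PCDH1, at 1.99, 5.42 and 5.32. N-cadherin, CDH2, at 18.5, 27.5 and 33.3 FPKM, did not reach 1.5-fold.

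Guidance molecules, which steer cell contact and migration, formed a further group. Of 13 ephrins and Eph receptors, 5 (38.5%) were at least 1.5-fold higher and none lower, and the median difference was 0.48. The 4 largest differences were all in ephrin-A ligands: EFNA3 had 3 reads with empty vector and 59 with wild-type ZEB1, a ratio of 22.6 (7.38 to 113), and EFNA1 had 20 and 111, a ratio of 6.39 (3.95 to 10.9). EFNA4 was at 2.24, 4.99 and 4.81 FPKM and EFNA5 at 1.93, 3.95 and 3.75. EFNA3 and EFNA1 passed the level filter through the wild-type ZEB1 library alone, and of the 11 members at or above 1 FPKM in both libraries 3 were higher. These are low levels, and among the 5 members of the list with a mean of at least 5 FPKM none was higher. Semaphorins and plexins had 5 of 23 higher and none lower. SEMA4B, a membrane-bound semaphorin (chromosome 15, 90160604 to 90229679), was at 18.4, 72.0 and 32.3 FPKM, and the semaphorin coreceptor NRP2 at 13.2, 29.5 and 23.5.

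Glycolysis had the largest share of higher members among the lists with at least 10 measured genes. Of 24 genes, 11 (45.8%) were at least 1.5-fold higher and none lower, and the median difference was 0.34. The neuronal-type isoenzymes ALDOC, an aldolase, and ENO2, an enolase, stood at 13.0, 42.0 and 17.5 and at 26.6, 56.9 and 23.2 FPKM. The glucose transporters SLC2A3 and SLC2A1 were at 15.1, 47.5 and 22.5 and at 42.9, 121 and 86.0 FPKM. ALDOC, ENO2 and SLC2A3 were nearer to empty vector than to wild type in the ZEB1 K80R library. The pentose phosphate and nucleotide synthesis genes were divided: 3 of 34 were higher, among them the pentose phosphate enzyme TKT, at 35.01, 69.0 and 61.4 FPKM. The 7 lower members included PFAS and PPAT of purine synthesis, at 19.6, 10.7 and 14.3 and at 11.6, 6.81 and 9.56 FPKM.

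Lipid synthesis genes lay on the upper side with 2 marked exceptions. Of 20 genes of fatty acid synthesis and desaturation, 7 were at least 1.5-fold higher and none lower, and the median difference was 0.34. The desaturase gene FADS2 was at 21.7, 49.7 and 45.6 FPKM with empty vector, with wild-type ZEB1 and with K80R, and the elongase gene ELOVL5 at 35.9, 63.8 and 65.6. Fatty acid oxidation had 0 of 21 higher and 1 lower. Of 22 cholesterol synthesis genes, 7 were higher and 2 lower. The late enzymes DHCR7, at 47.8, 119 and 120 FPKM, and NSDHL, at 13.1, 32.0 and 32.5, were about as high in both ZEB1 libraries. CYP51A1, the lanosterol demethylase (chromosome 7, 92112151 to 92134803), and PMVK, the phosphomevalonate kinase, ran the other way, at 27.1, 8.45 and 9.07 and at 25.1, 8.04 and 6.16 FPKM. Amino acid transporters had 7 of 22 higher and none lower, with SLC7A5, a carrier of large neutral amino acids, at 71.1, 136 and 118 FPKM.

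DNA replication genes were the list with the lowest median among those of at least 10 measured genes. The MCM2 to MCM7 helicase is loaded at origins, is activated with GINS, and polymerases and the flap endonuclease FEN1 complete the new strands. Of 51 measured genes, 13 (25.5%) were at least 1.5-fold lower, against 7.80% of all genes, and 1 was higher, and the median difference was −0.35. The difference was above 0 for 14 of the 51. GINS1 was at 11.6 FPKM with empty vector, 5.04 with wild-type ZEB1 and 6.86 with ZEB1 K80R, and its ratio of wild type to empty vector was 0.435 (0.378 to 0.499). MCM3 (ENSG00000112118; chromosome 6, 52264009 to 52284881) was at 39.4, 18.5 and 26.5 FPKM, a ratio of 0.470 (0.435 to 0.508). POLE4, a small subunit of polymerase epsilon, stood at 26.7, 13.5 and 9.81 FPKM. FEN1 was at 82.6, 39.5 and 46.2 FPKM, although its span overlaps those of FADS2, which was higher, and TMEM258. TMEM258 was at 7.88 FPKM with empty vector and 17.7 with wild-type ZEB1. Families formed from the letters of gene symbols share members with this list: of 182 with at least 8 members, the MCM symbols had the lowest median, −0.60, with 5 of 9 lower.

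The letters TTTGGCGC or TTTCCCGC, forms of the site bound by E2F factors and searched on both strands, stood in 4.01% of the promoter windows of all genes and in 18 of 44 windows of replication genes (40.9%). The 18 had a median difference of −0.50 and the other replication genes −0.28. Over all genes the 334 with the letters had a median of −0.05. The windows are shown for MCM3 (chr6:52284863-52284962, minus strand), POLE4 (chr2:74958543-74958642, plus strand) and MCM6 (chr2:135876480-135876579, minus strand), with the letters in capitals, as members of the lower group that carry them. In POLE4 they read on the opposite strand, and its window lies 51 to 150 bases past the first base of the gene in the deposited table.
MCM3: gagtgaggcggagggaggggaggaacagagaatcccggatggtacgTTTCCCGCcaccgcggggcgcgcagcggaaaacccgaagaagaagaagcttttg
POLE4: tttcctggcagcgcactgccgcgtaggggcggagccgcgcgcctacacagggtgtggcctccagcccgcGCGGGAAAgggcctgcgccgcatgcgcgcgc
MCM6: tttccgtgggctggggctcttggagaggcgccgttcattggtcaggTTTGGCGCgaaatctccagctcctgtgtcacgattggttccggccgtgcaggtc

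Repair and mitosis genes also leaned downwards, by smaller shares, while other lists of the dividing cell did not. Of 31 Fanconi, homologous recombination and mismatch repair genes, 7 (22.6%) were at least 1.5-fold lower and none higher, and the median difference was −0.26, and FANCL, the ubiquitin ligase of the Fanconi pathway, was at 8.09, 3.46 and 4.51 FPKM. Of 51 mitosis and cytokinesis genes, 10 were lower and 3 higher, and the kinetochore gene CENPW was at 48.3, 18.5 and 12.5 FPKM. Kinesins had 5 of 27 lower and none higher. The anaphase-promoting complex and cullin ligases had 2 of 27 lower (7.41%) and 1 higher, near the share of all genes. Replication-dependent histones had 5 of 17 higher (29.4%) and 3 lower, and the median difference was 0.15. CKS2 and GMNN, both regulators of the cell cycle, lay at opposite ends of the comparison.

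Ribosomes were divided between their parts and their assembly. Of 63 ribosome biogenesis factors, which process ribosomal RNA in the nucleolus, 12 (19.0%) were lower and 2 higher, and the median difference was −0.27, and NOP9 was at 10.2, 4.40 and 5.64 FPKM with empty vector, with wild-type ZEB1 and with K80R. Of 81 cytosolic ribosomal proteins, 24 (29.6%) were higher and 6 lower, and the median difference was 0.27. RPL29 stood at 56.6, 252 and 168 FPKM, RPS27 at 59.5, 209.96 and 148 and RPL27 at 69.3, 224 and 171. The summed level of the 81 was 16136 FPKM with empty vector, 17661 with wild-type ZEB1 and 12671 with ZEB1 K80R. The sum thus differed less than these members did, and the ZEB1 K80R library had the lowest sum although these 3 were above empty vector in it. Ribosomal protein genes have many near-identical pseudogenes between which reads may be split. Mitochondrial ribosomal proteins had 6 of 75 higher and 11 lower, and the median difference was −0.03.

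Nuclear-encoded mitochondrial genes did not move as 1 group. Respiratory chain subunits were spread in both directions: of 35 complex I subunits 6 were higher and 4 lower, and of 38 subunits of complexes III, IV and V 10 were higher and 5 lower. The complex I subunit gene NDUFB4 was at 9.56, 39.7 and 30.4 FPKM with empty vector, with wild-type ZEB1 and with K80R and COX8A of complex IV at 53.01, 168 and 124, while COX6C was lower as given above. Complex IV assembly and import were on the lower side. Complex I assembly factors had 2 of 16 lower and none higher, and the median difference was −0.08, and iron-sulfur cluster assembly had 2 higher and 2 lower of 19. Of 22 complex IV assembly factors, 7 (31.8%) were at least 1.5-fold lower and none higher, and the median difference was −0.35. The insertase COX18 and the copper chaperone COX17 stood at 7.16, 2.65 and 2.96 and at 27.0, 12.1 and 8.71 FPKM. Of 30 import genes 5 were lower and none higher, with TIMM8A at 10.3, 4.04 and 4.82 FPKM. HSP70, HSP90 and chaperonin subunits, which fold proteins in the cytosol and mitochondria, had 6 of 26 lower and none higher, and the median difference was −0.21. TCP1 was at 155, 81.6 and 74.2 FPKM, the mitochondrial chaperonin HSPD1 at 256, 144 and 149, and HSP90AA1 at 601, 359 and 392.

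**Figure D4:**
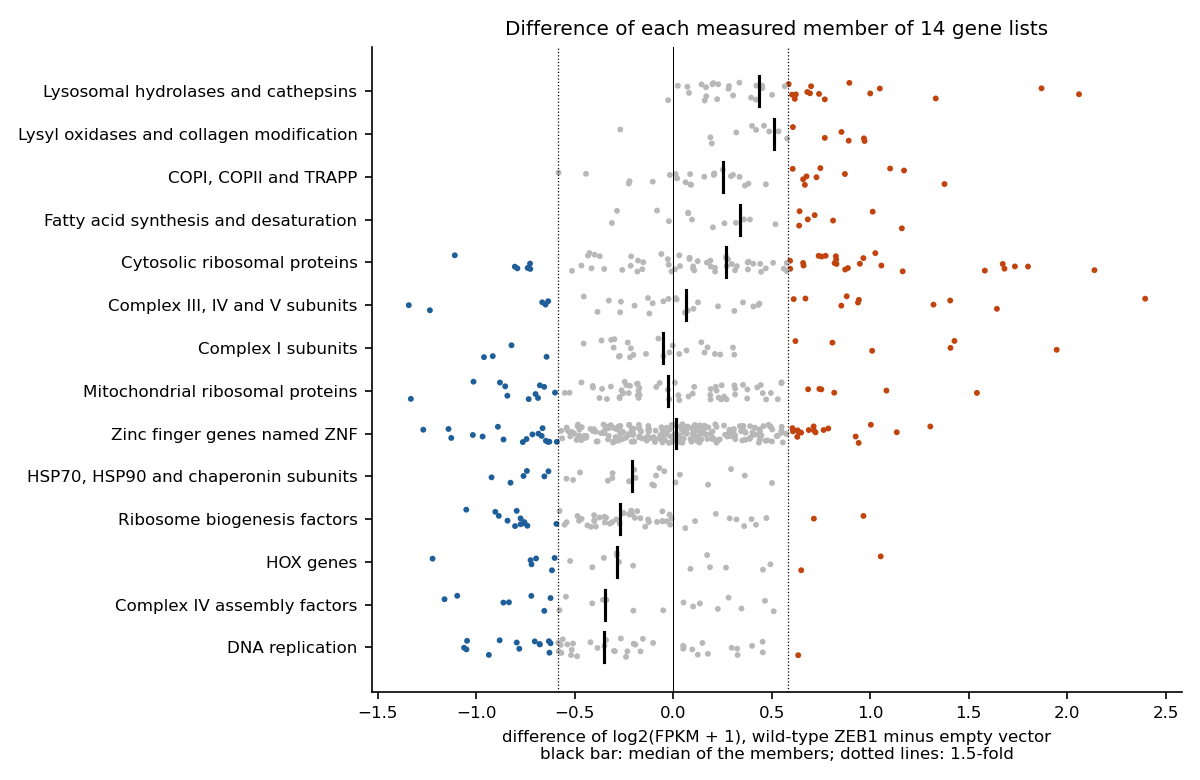
Difference of log2(FPKM + 1) of each measured member (points) of 14 lists, with the median as a black bar, dotted lines at 1.5-fold and a random vertical offset. Ribosomal proteins and respiratory chain subunits spread to both sides, lysosomal members lie almost wholly to the right of 0, and the medians of the lowest 5 lists lie to the left.

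The machinery of transcription and RNA processing held members at both extremes. Of 79 splicing factors, 10 were higher and 15 (19.0%) lower, and the median difference was −0.16. SRSF3, a splicing regulator, was at 74.9995, 34.7 and 35.8 FPKM with empty vector, with wild-type ZEB1 and with K80R, and HNRNPA0 at 35.8, 15.1 and 14.6. SNRPA, a protein of the U1 particle, ran the other way, at 14.8, 34.5 and 34.1 FPKM. RNA polymerase subunits had 7 of 29 lower and 1 higher, although the median over them was −0.01, so the lower members formed a tail. POLR2L, shared by the nuclear polymerases, stood at 142, 64.4 and 45.4 FPKM, and its span overlaps that of CD151, which was higher. Among TFIID and general transcription factors TAF9 was at 9.75, 25.9 and 27.1 FPKM and TAF10 at 4.55, 1.35 and 0.738. Enzymes that modify transfer RNA had 6 of 47 lower (12.8%) and none higher, and the median difference was −0.07. The largest difference was in CTU1, which thiolates the wobble base, at 39.0, 14.9 and 11.8 FPKM. Nucleoporins and karyopherins had 5 of 45 lower (11.1%) and none higher, and the median difference was −0.18. Of all genes compared, 7.80% were lower and 11.7% higher, so the lower shares of these lists were not far from that of all genes.

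Cytoskeletal and signalling lists leaned upwards in part. Of 19 tubulin genes and folding factors, 8 (42.1%) were higher and 1 lower, with gamma-tubulin, TUBG1, at 9.76, 28.5 and 25.3 FPKM and TUBB at 198, 476 and 449. Of 31 ligands, receptors and SMADs of the TGF-beta and BMP pathways, 7 (22.6%) were higher and none lower. The activin subunit gene INHBA stood at 2.46, 10.98 and 2.87 FPKM and the ligand gene TGFB1 at 74.6, 156 and 109, so that INHBA but not TGFB1 was close to empty vector with K80R. Adhesion and other G protein-coupled receptors had 11 of 43 higher and 1 lower, but 6 of the 11 passed the level filter through the wild-type ZEB1 library alone, and of the 34 at or above 1 FPKM in both libraries 5 were higher. The fatty acid receptor GPR84 had 3 reads with empty vector and 71 with wild-type ZEB1, a ratio of 27.3 (8.96 to 135).

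Transcription factors differed by family. Of 256 ZNF genes, 18 (7.03%) were higher and 17 (6.64%) lower, and the median difference was 0.02. Many of them are low, and with a pseudocount of 0.1 these shares were 15.6% and 14.5%, where those over all genes were 15.3% and 11.3%. The AP-1, ATF and CREB factors had 9 of 24 higher and 1 lower, and FOSL1, an AP-1 subunit, was at 56.9, 193 and 104 FPKM with empty vector, with wild-type ZEB1 and with K80R. Basic helix-loop-helix and MYC network factors had 8 of 30 higher and 1 lower. BHLHE40 was at 29.1, 91.6 and 37.2 FPKM, the MYC antagonist MXI1 at 4.28, 13.9 and 6.44, and TWIST1, a factor of epithelial-mesenchymal transition, at 2.60, 6.88 and 3.10, and all 3 were nearer to empty vector than to wild type in the ZEB1 K80R library. HOX genes, which mark position along the body axis, had 6 of 21 lower and 2 higher, with HOXB6 at 17.7, 7.04 and 11.1 FPKM. HOXC6, at 0.498, 2.11 and 1.78, passed the level filter through the wild-type ZEB1 library alone. Its span overlaps those of HOXC9, HOXC8 and HOXC4. Of the 19 HOX genes at or above 1 FPKM in both libraries, 6 were lower and 1 higher. KLF and SP factors had 4 of 16 higher (25%, against 11.7% of all genes) and none lower, and SP2 stood at 1.64, 7.76 and 7.94 FPKM. Their median difference was −0.008, with 8 members above 0 and 8 below.

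Genes that ZEB1 is known to repress in epithelial cells were for the most part below the level filter. Of 30 such genes, 24 were below it, and 7 had 0 reads both with empty vector and with wild-type ZEB1. The 6 that reached it had 2 lower and none higher, and S100A14, a calcium-binding protein of epithelia, was at 1.77, 0.511 and 0.176 FPKM. S100A14 passed the filter through the empty vector library alone. The desmosomal plakophilin gene PKP3, the other lower gene, was at 5.15, 2.79 and 2.56 FPKM. Of 15 partner repressors and activators of ZEB1, 1 was higher, the corepressor scaffold SIN3A at 4.30, 7.65 and 7.86 FPKM, and none lower. The E-box letters CACCTG bound by ZEB1 were searched on both strands. They stood in 17.0% of the promoter windows of all genes compared and in 20.6% of all 35116 RefSeq windows. They stood in 48 of 267 windows (18.0%) of genes at least 2-fold higher and in 16 of 109 (14.7%) of those at least 2-fold lower. CYP51A1 (chr7:92134560-92134659, minus strand) and TIMM23B (chr10:49941885-49941984, plus strand) were the 2 genes with the largest downward difference that carried them, shown with the letters in capitals. The CYP51A1 window lies upstream of a RefSeq start and 144 to 243 bases inside the gene's span in the deposited table.
CYP51A1: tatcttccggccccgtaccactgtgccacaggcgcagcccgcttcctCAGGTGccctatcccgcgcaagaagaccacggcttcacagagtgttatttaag
TIMM23B: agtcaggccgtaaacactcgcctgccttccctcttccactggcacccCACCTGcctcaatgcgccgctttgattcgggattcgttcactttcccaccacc

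The AP-1 letters TGANTCA stood in 4.23% of the windows of all genes compared and in 7.71% of all 35116 RefSeq windows. They stood in 24 of 267 windows (8.99%) of genes at least 2-fold higher and in 5 of 109 (4.59%) of genes at least 2-fold lower. Outside the NF-kB and cytokine lists the share among the 2-fold higher genes was 9.02%, 22 of 244. At 1.5-fold the shares were 6.53% of higher genes, 62 of 949, and 4.03% of lower genes, 25 of 620. The window of ECM1, an extracellular matrix glycoprotein gene (chr1:150507984-150508083, plus strand), is shown with the letters in capitals.
ECM1: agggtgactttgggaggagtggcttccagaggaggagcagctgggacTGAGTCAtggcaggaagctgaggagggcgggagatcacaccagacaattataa

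Length and base composition moved with the differences. When genes were put in 10 groups of equal size by length, in the shortest group, with a median length of 1706 bases, 21.1% were at least 1.5-fold higher and 14.99% lower, against 4.65% and 2.13% in the longest. Short genes thus differed more often in both directions, and their median was 0.03 against −0.02. By GC content of the longest coding transcript, the median difference went from −0.12 in the lowest of 10 such groups (37.2% GC) to 0.14 in the eighth (56.7%) and was −0.03 in the highest. The part of length and GC content in the results was not tested beyond the centring given under the alternatives. With differences centred on genes of like GC content, the medians were 0.44 for lysosomal, 0.40 for collagen-modifying and −0.37 for replication genes, and those of complexes III, IV and V and of KLF and SP factors changed sign. By chromosome, the median was highest on 19, at 0.11 over 664 genes, and lowest on 4, at −0.09 over 370.

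**Figure D5:**
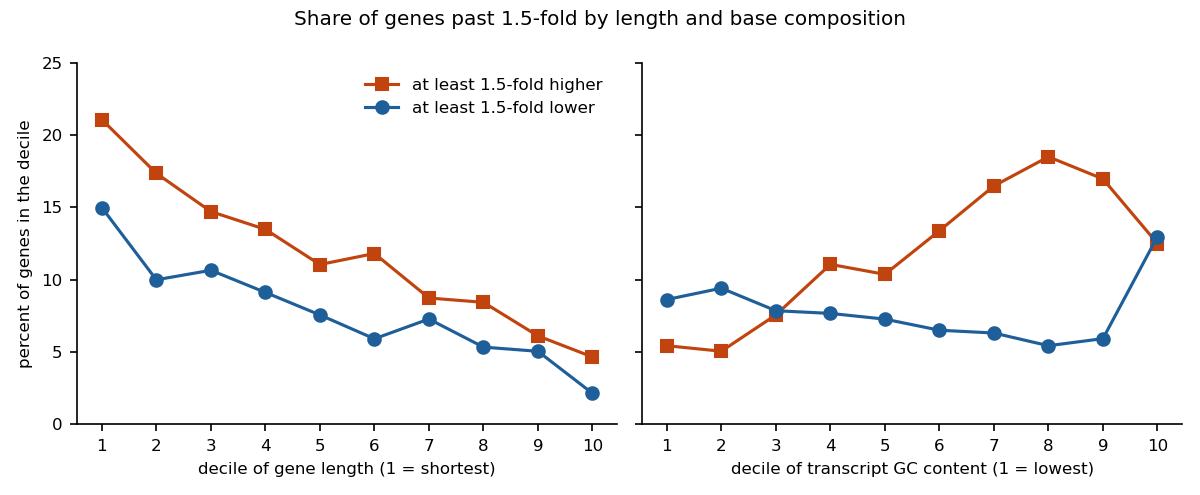
Percent of genes at least 1.5-fold higher (squares) or lower (circles) in the wild-type ZEB1 library, in 10 groups of equal size by gene length and by transcript GC content. Both shares fall with length, from 21.1% and 14.99% to 4.65% and 2.13%, and the share of higher genes is largest in the eighth group by GC content.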

How the data were processed

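The authors deposited 1 table of FPKM per gene with gene lengths and coordinates for 3 libraries, 1 per group. Per the submitters' processing notes, the tools were featureCounts 1.5.0-p3, CASAVA and DESeq2 1.20.0 on hg38, without roles. The sources used here give neither aligner, strand setting nor annotation, so overlapping genes could not be told apart by strand. FPKM times gene length was a whole multiple of 1 step in 100% of values above 0 (tolerance 0.05 reads), which gave the reads behind the Clopper-Pearson 95% counting intervals of ratios. A count of 0 allows up to 3 reads. Differences were of log2(FPKM + 1), counted at 2-fold over all genes and 1.5-fold within lists, with no test because each group had 1 library. The 101 gene lists, the members and the named genes (the 20 largest differences in each direction and up to 4 per list) were chosen with earlier results of these data known, and GAA, MCM6, ECM1 and the marker genes were named outside that rule. Promoter windows came from RefSeq, taking the window nearest the gene's 5′ end, and GC content from GENCODE transcripts. Alternatives were the pseudocount, the level filter and the scaling; centring on GC content was added after the data were seen. Scripts ran in Python 3.11.15 with numpy 2.4.6, pandas 2.3.3 and scipy 1.17.1, and the intervals were tested on simulated data. Some results are not reported here.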

Additional observations from a re-analysis of the deposited data

Results flagged for a closer look

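The 13 mitochondrially encoded mRNAs, which the comparison above leaves out, summed to 9637 FPKM with empty vector, 76127 with wild-type ZEB1 and 92839 with ZEB1 K80R. All 13 were at least 2-fold higher with wild-type ZEB1 than with empty vector, with a median difference of log2(FPKM + 1) of 2.77 and a range of 1.29 to 3.85. They were set apart because they lie outside the genes compared and stood above the control library. These mRNAs are included in the sum used for the common-sum scaling. The part of this difference in the other results was not tested.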

How the results depend on the processing

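No paired analysis was possible because each group had 1 library, and none could be left out. The number of genes at least 2-fold higher and lower, 346 and 125, was 569 and 254 with a pseudocount of 0.1 and 181 and 1161 at a common sum. Relative to the median gene at a common sum it was 501 and 243, and under the other filters and centrings it stayed within 1.5 times. Of the 98 list medians, 93 had the same sign relative to the median gene at a common sum, 92 with centring on length, 84 with centring on GC content, 98 with a pseudocount of 0.1 and 47 at a common sum without centring. Shares of list members are given next where they left the binomial interval of the main value. With a pseudocount of 0.1 the lower share of DNA replication was 41.2%, and the ZNF genes were 15.6% higher and 14.5% lower. At a common sum relative to the median gene those values were 41.2%, 12.5% and 13.7%. At a mean of at least 5 FPKM the lower share of Fanconi and repair genes was 50% (5 of 10), the higher share of ZNF genes was 1.61%, and 0% was found for the higher share of ephrins, iron-sulfur assembly, Integrator, TRIM, DNAJ, other receptor tyrosine kinases, one-carbon metabolism and DNA replication, and for the lower share of the tricarboxylic acid cycle, tetraspanin, claudin, G protein-coupled receptor, one-carbon, other solute carrier, forkhead, basic helix-loop-helix and AP-1 lists. With centring on the median the higher share of the anaphase-promoting list was 0%. With centring on length it was 0% too, as for DNA replication, and G protein subunits had 6.90%. With centring on GC content the higher share was 10.3% for actin and myosin genes and 0% for the Integrator, EGF receptor, aldehyde dehydrogenase and SOX lists, and the lower share was 0% for the Wnt and basic helix-loop-helix lists. Most of the zeros come from lists with 1 or 2 members past 1.5-fold. With single libraries of 13479517 to 14764535 reads, depth limits the low genes, such as EFNA3 with 3 reads.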
